A study of Drosophila melanogaster with 3 samples.

Results

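The Rab GTPase genes of Drosophila melanogaster were described by the places where tagged Atf3 was called in and around them in whole embryos. Members were the protein-coding genes of the Ensembl annotation whose symbol is Rab or RabX, a number and optional capital letters, which gave 30 of the 13945 protein-coding genes on the chromosome arms. The rule uses the symbol and no measured value. The data are chromatin immunoprecipitation with sequencing (ChIP-seq), in which an antibody pulls down DNA bound by a protein. Embryos of the transgenic strain A3-3-GFP, aged 0 to 24 hours and of both sexes, carried Atf3 with green fluorescent protein at its C-terminus, and an antibody against the fluorescent protein was used, per the labels. The 3 biological replicates formed 1 group, with no treatment and no other genotype. Whether the strain kept untagged Atf3, and which promoter drives the fusion, is not given in the sources used here. Whole embryos of a full day mix all tissues and stages, and the call of a gene cannot be tied to 1 cell type.

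Rab proteins are small GTPases that switch between an active form bound to GTP and an inactive form bound to GDP, and each marks a particular membrane of the secretory or endocytic pathway. Exchange factors load them with GTP, activating proteins trigger its hydrolysis, and effectors such as tethers and motors bind the active form. A prenyl group made on the protein by the Rab geranylgeranyl transferase, with the help of the escort protein Rep, holds them in the membrane. Atf3 is a basic leucine zipper factor of the ATF/CREB family, whose known site is the cAMP response element.

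Atf3 calls were made by the authors in each replicate (30000 calls a list), in the replicates pooled (27754 calls) and in a list filtered on the irreproducible discovery rate (IDR), which asks how repeatably calls rank between replicates (2896 peaks). The IDR peaks were the pooled calls with the best signals, down to the rank of 2896, so membership of the list follows pooled signal. The long lists include background calls, per the labels. A call is placed by its summit, the base of greatest enrichment, and counts as a promoter call when the summit lies within 500 bp of any transcription start site (TSS) of the gene. The signal of a call is the authors' value and is set against other values of the same list only, so replicates are compared by rank, where 1 is the best. The top peaks of a replicate are its 2896 calls of best signal. Read totals are not part of the lists, so depth is unknown, and the 95% Wilson intervals given here cover counting error only.

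Sequence from the RefSeq copy of the release 6 genome (dm6) is shown for 5 IDR peaks at Rab genes, each read 5′ to 3′ on the strand of the gene around the summit. The promoter peaks of Rab40, Rab8 and Rab30 are shown because they hold the DNA replication-related element (DRE), the site of the promoter factor DREF. The peaks of Rab11 and Rab14 are shown because they had the best signals among the 10 IDR peaks at Rab genes and lie in introns. Capitals mark matches on either strand to TATCGATA (the DRE), to its inner letters ATCGAT (which every DRE also holds) and to ATTGCAAT, a palindrome bound by C/EBP proteins. The last of these and ATCGAT were added to the motif list after the sequences had been read. The stretches are chrX:12463113-12463205 (minus strand) for Rab40, chr3L:19871079-19871138 (minus strand) for Rab8, chr2L:7032628-7032720 (minus strand) for Rab30, chr3R:21113159-21113279 (plus strand) for Rab11 and chr2L:14355690-14355810 (plus strand) for Rab14. Those at the 3 promoters stop at the first transcribed base of the Rab gene or its neighbour.
Rab40: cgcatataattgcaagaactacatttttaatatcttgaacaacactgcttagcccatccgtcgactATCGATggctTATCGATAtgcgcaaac
Rab8: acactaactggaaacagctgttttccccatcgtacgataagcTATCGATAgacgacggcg
Rab30: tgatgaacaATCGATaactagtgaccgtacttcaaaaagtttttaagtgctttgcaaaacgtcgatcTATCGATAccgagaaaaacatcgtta
Rab11: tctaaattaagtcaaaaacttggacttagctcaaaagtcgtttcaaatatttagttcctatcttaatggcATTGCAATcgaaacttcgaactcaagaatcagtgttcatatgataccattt
Rab14: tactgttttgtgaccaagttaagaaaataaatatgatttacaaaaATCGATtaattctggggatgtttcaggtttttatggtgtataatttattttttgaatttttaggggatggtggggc

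Atf3 was called at the promoters of most Rab genes in the pooled list: 21 of 30 Rab genes had a promoter call (70%, Wilson interval 52.1 to 83.3%), against 46.8% of all protein-coding genes. In the IDR list 6 of 30 did (20%, interval 9.51 to 37.3%), against 14.2% of all protein-coding genes, which lies inside that interval. The 6 were Rab5, Rab8, Rab30, Rab39, Rab40 and RabX1. Inside the gene, an IDR summit lay in 5 of 30 Rab genes (16.7%, interval 7.34 to 33.6%), namely Rab5, Rab11, Rab14, Rab23 and Rab32, against 8.48% of all protein-coding genes. Rab genes were longer, with a median length of 2881.5 bp against 2166 bp over all protein-coding genes, and the part of length in the count inside genes was not tested. Among the 10960 protein-coding genes within the length range of the Rab genes (791 to 16254 bp; median 2251 bp, still shorter) the share was 6.48%. Either kind of IDR summit was present in 10 of 30 Rab genes (33.3%, interval 19.2 to 51.2%), against 17.8% of all protein-coding genes. For pooled calls inside the gene the count was 20 of 30 (66.7%, interval 48.8 to 80.8%), against 49.3%. Rab genes share a family origin and some share a promoter with a neighbour, and no test was made over them.

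Along the order of the pooled calls, only Rab39 had a promoter call among the first 1448 (3.33% of Rab genes, interval 0.591 to 16.7%), against 7.97% of all protein-coding genes, which lies inside the interval. Among the first 5792 calls the count was 12 Rab genes (40%), against 23.3%, and among the first 11584 calls it was 14 (46.7%), against 32.8%. The median Rab gene had its best promoter call between ranks 13187 and 14002, while the median protein-coding gene had none.

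**Figure D1:**
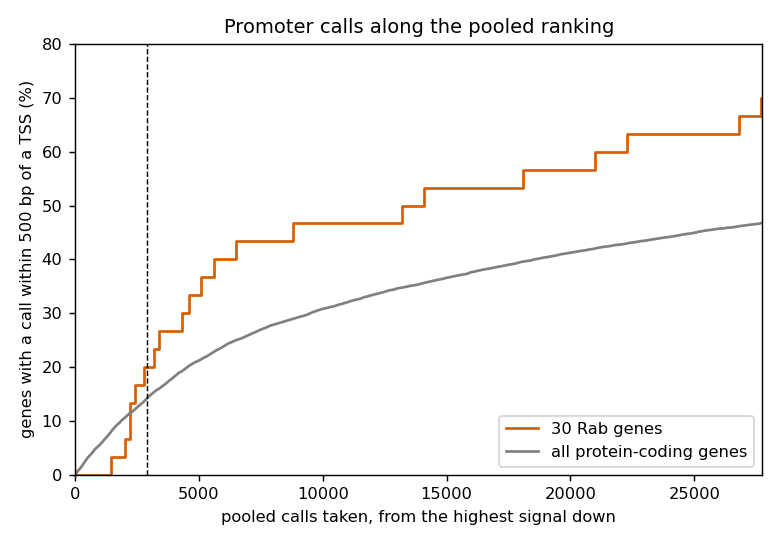
Share of genes with a promoter call (y, percent) against the number of pooled calls taken from the best signal down (x), for the 30 Rab genes and for all protein-coding genes. The dashed line stands at the 2896 IDR peaks, where the shares are 20% of Rab genes and 14.2% of all.

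Counting every call, 19 of 30 Rab genes had a promoter call in replicate 1, 19 in replicate 2 and 14 in replicate 3, against 51.7%, 43.1% and 40.8% of all protein-coding genes. The mean was 17.33 ± 2.89 Rab genes (SD, n = 3). Among the top peaks the counts were 6, 6 and 1, with a mean of 4.33 ± 2.89 (SD, n = 3), against 13.2%, 14.9% and 12.8% of all protein-coding genes. Replicate 3 held only Rab39 (3.33% of Rab genes, interval 0.591 to 16.7%) and replicates 1 and 2 held 20% each (interval 9.51 to 37.3%). Each interval holds the share of all genes in its replicate. Replicate 1 had Rab1, Rab5, Rab6, Rab8, Rab39 and Rab40, and replicate 2 had Rab5, Rab8, Rab30, Rab39, Rab40 and RabX1. Keeping only IDR peaks that overlap a top peak of both other replicates left 1 Rab promoter (Rab39) without replicate 1, 1 (Rab39) without replicate 2 and 4 (Rab5, Rab8, Rab39, Rab40) without replicate 3. Of all protein-coding genes 10.2%, 8.94% and 9.26% were left in these sets. Of the 6 promoter IDR peaks, only that of Rab39 was thus among the top peaks of replicate 3, and the reason was not tested.

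**Figure D2:**
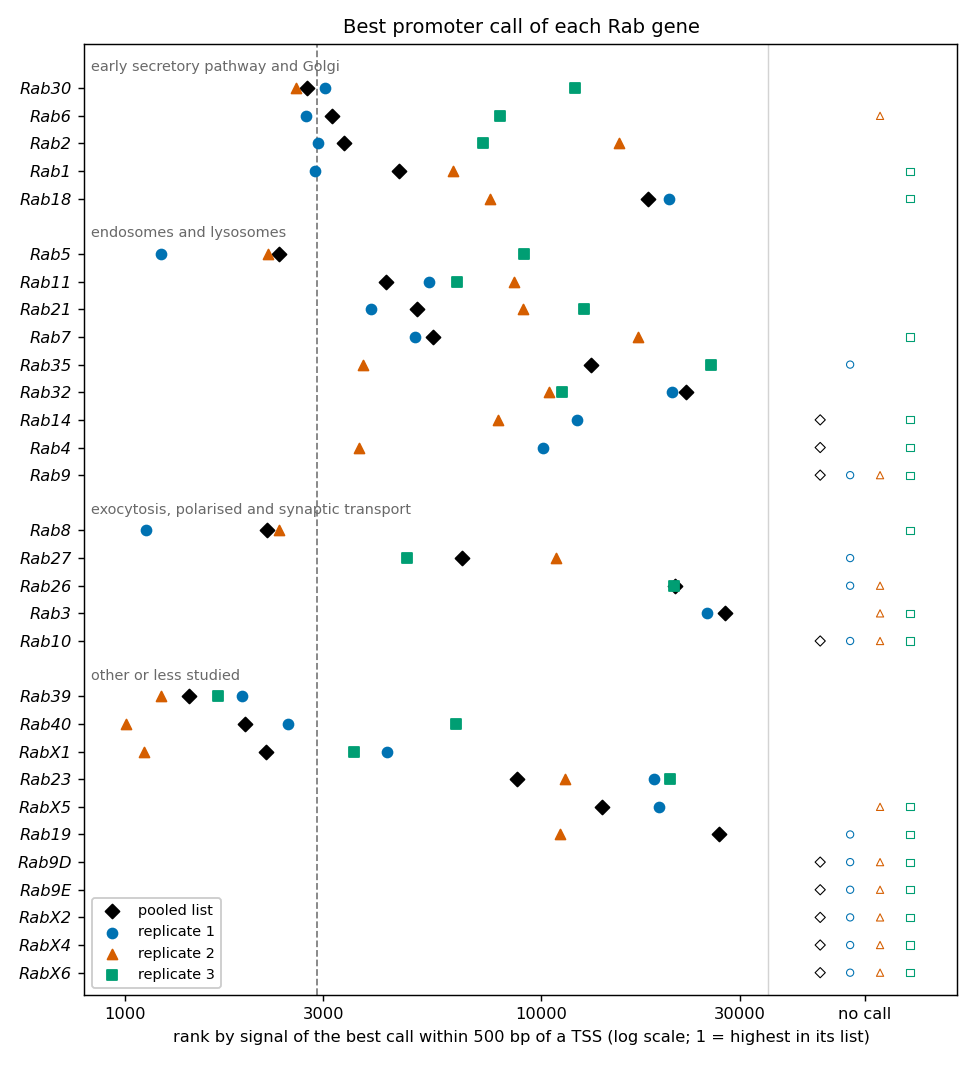
Rank of the best promoter call of each Rab gene (x, log scale, 1 is the best signal of a list) in the pooled list and in each replicate, with genes grouped by role; open symbols at the right mean no call, and the dashed line stands at rank 2896. Rab39 is left of the line in all 4 lists, and 7 genes have no promoter call in any of them.

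Rab39 had the promoter peak that held up best. The gene (FBgn0029959), a member whose vertebrate relatives act in lysosomal and autophagic traffic, had an IDR peak on arm X from 7734419 to 7734818, with a signal of 123 and pooled rank 1427. Its ranks were 1917, 1222 and 1670 in replicates 1 to 3, with signals of 47.5, 39.4 and 34.8 and a mean rank of 1603 ± 352 (SD, n = 3). All 3 ranks are inside the top peaks, which was true of no other Rab promoter. Over the whole IDR list, 1535 of 2896 peaks overlapped a top peak of every replicate. The summit lay 304 bp upstream of Rab39 but only 32 bp from the TSS of its head-to-head neighbour Pdp, which encodes pyruvate dehydrogenase phosphatase, in an exon holding the 5′ UTR of Pdp. The call cannot be assigned to 1 of the pair.

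Among genes of polarised and exocytic transport, Rab8 was the only 1 of 5 with an IDR summit at a TSS or inside. Over all protein-coding genes 17.8% had either. Rab8 (FBgn0262518) directs vesicles from the Golgi to the plasma membrane. Its peak on arm 3L from 19870888 to 19871287 had a signal of 96.1 and a summit 10 bp upstream of the TSS, between Rab8 and Usp32, a ubiquitin protease gene whose TSS is 51 bp from the summit. Its rank was 1127 in replicate 1 and 2340 in replicate 2, and replicate 3 had no call there. Replicates 1 and 2 thus rank it with their top peaks, while replicate 3 lacks it among 30000 calls. Rab27, Rab26 and Rab3, which act in regulated secretion, had pooled promoter calls at ranks 6462, 20949 and 27674, the last near the end of the list. Rab10, a factor of polarised secretion, had none, and its best pooled call lay 858 bp downstream of its TSS at rank 4967.

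In the early secretory pathway and Golgi group all 5 genes had a pooled promoter call and 1 had a promoter IDR peak. Over all protein-coding genes the shares were 46.8% and 14.2%. Rab30 (FBgn0031882), a Golgi Rab, had its peak on arm 2L from 7032488 to 7032887, with a signal of 82.8 at rank 2740, close to the end of the IDR list. Its ranks were 3025, 2578 and 12052 in replicates 1 to 3 (mean 5885 ± 5345, SD, n = 3). Replicate 2 alone placed it among its top peaks, and replicate 3 far down its list. The summit was 82 bp upstream of Rab30 and 33 bp from the TSS of Caper, an RNA-binding splicing factor gene on the opposite strand. Rab6, of traffic within and from the Golgi, and Rab2, of transport between the endoplasmic reticulum and the Golgi, followed just below the IDR list, at pooled ranks 3149 and 3354 with signals of 75.7 and 72.3. Their summits were 93 bp downstream and 26 bp upstream of their own TSS. Rab1, needed for transport from the endoplasmic reticulum to the Golgi, was at rank 4554 with a summit 36 bp upstream, and Rab18, a Rab of lipid droplets and the endoplasmic reticulum, at rank 18071. Rab6 and Rab1 were top peaks in replicate 1, at ranks 2723 and 2860. Rab6 was without a promoter call in replicate 2, and Rab1 and Rab18 without one in replicate 3.

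In the endosomal and lysosomal group most IDR summits lay inside the genes. Of its 9 members, 4 had an IDR summit inside the gene (Rab5, Rab11, Rab14 and Rab32), against 8.48% of all protein-coding genes. Of these 4, Rab5 also met the promoter rule. All 4 are longer than the median Rab gene (2881.5 bp), as are other Rab genes without such a summit, and the part of length was not tested. Of the other 21 Rab genes only Rab23 had an IDR summit inside, and the difference between the groups was not tested. The count depends on the grouping: Rab39 and RabX1, counted here with the less studied genes, also have links to endosomes or lysosomes and had promoter IDR peaks only. Pooled promoter calls were present for 6 of the 9, against 46.8% of all protein-coding genes.

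Rab11 (FBgn0015790), the Rab of recycling endosomes, held the IDR peak of best signal inside any Rab gene (arm 3R, 21113019 to 21113418), with a signal of 188 and pooled rank 657. The summit lay 1811 bp downstream of the TSS, in an intron of both transcripts. Its ranks were 487, 503 and 1747 in replicates 1 to 3, with signals of 92.4, 64.0 and 34.0 and a mean rank of 912 ± 723 (SD, n = 3). All 3 replicates had it among their top peaks, and replicate 3 ranked it lowest. At the promoter of Rab11 a weaker pooled call stood 78 bp upstream at rank 4246. The best promoter calls of replicates 1 to 3 ranked 5374, 8589 and 6278. Their summits lay 9 bp downstream, 222 bp upstream and 59 bp upstream of the TSS, and they were not matched to the pooled call.

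Rab14 (FBgn0015791), which acts between endosomes and the trans-Golgi, had the next best signal of 164, at pooled rank 856, on arm 2L from 14355550 to 14355949. Its ranks of 1283, 905 and 833 in replicates 1 to 3 (mean 1007 ± 242, SD, n = 3) were all inside the top peaks and had the smallest SD among the 8 peaks called in every replicate. The summit was 605 bp downstream of the first TSS, just outside the promoter window, in intron 1 of 1 of the 3 transcripts and upstream of the other 2, and also within the non-coding gene lncRNA:CR44851. With a window of 1000 bp Rab14 joined the promoter genes, which made 7 of 30. The IDR summit just inside the window was that of Rab5, at 450 bp.

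Rab5 (FBgn0014010), which drives fusion of early endosomes, has 6 TSSs. Its IDR peak on arm 2L from 2363754 to 2364153 had a signal of 91.6 and lay 1319 bp into the gene, in intron 1 of 6 of its 9 transcripts and 450 bp upstream of an internal TSS. Replicate 1 ranked it 1221. The overlapping call of replicate 2 ranked 2203, with its summit 187 bp downstream of the IDR summit, and replicate 3 had no call at that place. The best call of replicate 3 at a Rab5 TSS was another, 58 bp upstream at rank 9073. Rab32 (FBgn0002567), which is needed for the pigment granules of the fly eye, a lysosome-related organelle, had an IDR peak on arm 2R from 9183506 to 9183905 with a signal of 87.4 and an intronic summit 2636 bp into the gene. Its ranks of 1432, 14384 and 2738 (mean 6185 ± 7131, SD, n = 3) had the largest SD among the 8 peaks called in every replicate, with replicate 2 far below the others. The summit also fell in an exon of lncRNA:CR44284, 311 bp from the TSS of that gene. Rab21 and Rab7, of early and late endosomes, had pooled promoter calls at ranks 5037 and 5513, and Rab35, of endosomal recycling, at rank 13187. Rab4, a Rab of fast recycling, had promoter calls at ranks 10097 and 3659 in replicates 1 and 2 but none in the pooled list. Rab9, of transport from late endosomes to the Golgi, had a promoter call in no list.

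**Figure D3:**
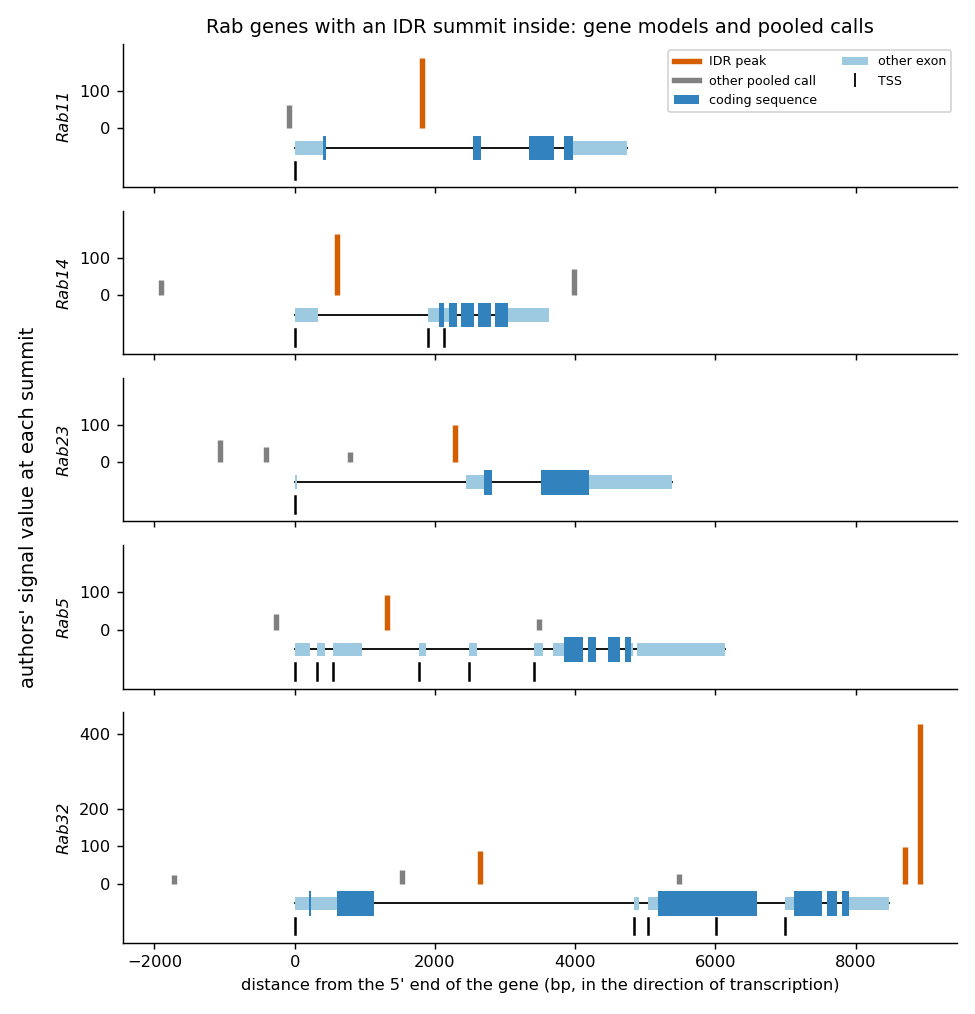
Gene models of the 5 Rab genes with an IDR summit inside, drawn from the 5′ end in the direction of transcription (x, bp), with all transcripts merged into coding sequence and other exons, and a bar for each pooled call whose height is the authors' signal (y). The Rab11 and Rab14 peaks have the tallest bars inside a gene, with signals of 188 and 164, and the tallest bar of all, 427, stands 431 bp past the end of Rab32.

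Of the remaining 11 genes, 3 had a promoter IDR peak, 1 had an IDR summit inside, and 5 had no promoter call in any list. Over all protein-coding genes the first 2 shares were 14.2% and 8.48%, and the last was not counted. Rab40 (FBgn0030391), whose protein carries a SOCS box and in human cells acts with ubiquitin ligases, had its peak on arm X from 12462945 to 12463344, with a signal of 103 at pooled rank 1940, and a summit 33 bp upstream of its own TSS, which was the nearest. Its ranks were 2465, 1006 and 6241 (mean 3237 ± 2702, SD, n = 3). Replicates 1 and 2 held it among their top peaks and replicate 3 did not. RabX1 (FBgn0015372), an endosomal Rab found in insects, had a signal of 96.1 at rank 2186, on arm 2R from 23523584 to 23523983. Its ranks were 4255, 1112 and 3550, and only replicate 2 had it among its top peaks. The summit was 171 bp upstream of RabX1 and 72 bp from the TSS of its neighbour mi. Rab23 (FBgn0037364), which acts in planar cell polarity in flies and in Hedgehog signalling in mice, had an IDR summit in its intron 1, 2283 bp from the TSS; the peak ran on arm 3R from 5682951 to 5683350 and had a signal of 99.9. Ranks of 3131, 1401 and 3064 (mean 2532 ± 980, SD, n = 3) placed it among the top peaks of replicate 2 and just below those of replicates 1 and 3. RabX5 and Rab19 had pooled promoter calls at ranks 14002 and 26783.

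The members without a call include genes whose promoter sequence recurs in the genome. Rab9, Rab10, Rab9D, Rab9E, RabX2, RabX4 and RabX6 had no promoter call in the pooled list or in any replicate, and Rab4 and Rab14 had promoter calls in 2 replicates but none in the pooled list. Around the 5′ end of each Rab gene, the share of 36-base words that occur again on the arms was 69.3% for Rab9E, 43.7% for Rab9D, 28.5% for RabX2 and 0% for the other 27. How the authors placed reads from repeated sequence is not given in the sources used here, and its part in the lack of calls at these 3 genes was not tested. Over the 27 others the counts were 6 with a promoter IDR peak (22.2%) and 21 with a pooled promoter call (77.8%). That check was added after the calls had been seen. The 3 genes left out had no promoter call, so leaving them out could only raise the shares. All protein-coding genes were not filtered in this way. Of the 9 genes without a pooled promoter call, 4 were on X, where 10 of the 30 Rab genes lie.

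All 6 promoter IDR summits were upstream of the TSS of the Rab gene, and 3 lay within 100 bp of it. Over all genes 1827 of 2112 pairs of promoter IDR summit and gene were upstream. For pooled calls, 17 of 27 at Rab promoters were upstream, with a median distance of 121 bp from the TSS, against 5685 of 8597 and 160 bp over all protein-coding genes. The Rab calls therefore sit about where promoter calls sit in general. Replicates 1 and 2 shared the most Rab genes with a promoter call, 16 (84.2% of either list). They also had the most such genes, 19 each against 14 in replicate 3. The overlap over all protein-coding genes was not counted. Replicates 1 and 3 shared 11 (57.9% of those of replicate 1, 78.6% of those of replicate 3), and replicates 2 and 3 shared 12 (63.2% and 85.7%). Spearman correlations of rank over these genes were 0.56 (n = 16), 0.41 (n = 11) and 0.41 (n = 12). These are descriptions over genes, which share the libraries.

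**Figure D4:**
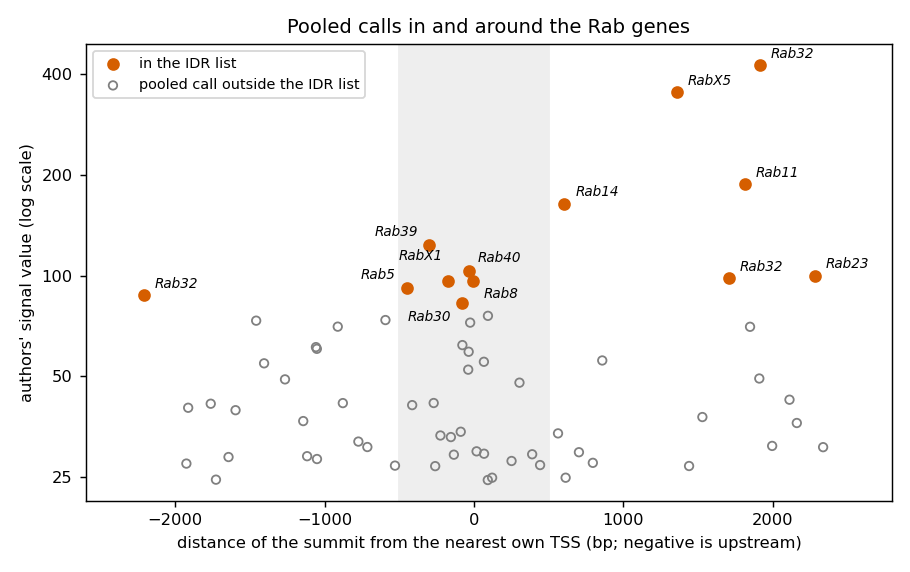
Signal of each pooled call (y, log scale) against the distance of its summit from the nearest TSS of the Rab gene (x, bp, negative is upstream), for the 67 calls within 2500 bp; filled points are in the IDR list and the shaded band is the 500 bp promoter window. The 6 filled points in the band all lie left of 0; the filled RabX5 point and the Rab32 points at the right of the band lie past the 3′ end of those genes.

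Shared promoters were frequent in this family. A protein-coding neighbour on the opposite strand with its TSS at most 1000 bp upstream was present for 18 of 30 Rab genes (60%), against 36.2% of all protein-coding genes. All 6 promoter IDR peaks were at Rab genes with such a neighbour, which is 33.3% of the 18, against 26.2% of the 5052 protein-coding genes with one. Of the 12 Rab genes without a neighbour, 0 had a promoter IDR peak, which allows a share of up to 25%, against 7.3% of 8893 protein-coding genes. The differences between Rab genes and all genes were not tested. For all of the 6 but Rab5, whether the call belongs to the Rab gene or to its neighbour cannot be told apart. The neighbour of Rab40 is CG42258, whose TSS was 383 bp from the summit. For pooled calls the shares were 77.8% of Rab genes with a neighbour and 58.3% of those without, against 64.7% and 36.6% of all protein-coding genes. Of the 6 promoter peaks, 5 (83.3%) lay within 500 bp of the TSS of at least 1 further protein-coding gene, against 596 of the 1469 promoter IDR peaks (40.6%). The exception is Rab5, whose peak is at an internal TSS. When each summit counted only for the gene of the nearest TSS, 3 Rab genes were left (Rab5, Rab8 and Rab40), against 10% of all protein-coding genes, since Rab39, RabX1 and Rab30 gave way to Pdp, mi and Caper. The partner of Rab23 is plx, which encodes a Rab GTPase activating protein, with its TSS 421 bp away.

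Of the 9 motifs first listed, the DRE was the most frequent at Rab promoters. Of 30 Rab promoters (250 bp before to 50 bp after the 5′ end), 11 held TATCGATA on either strand (36.7%), against 9.36% of all protein-coding promoters: those of Rab2, Rab6, Rab7, Rab8, Rab14, Rab19, Rab27, Rab30, Rab35, Rab40 and RabX6. Within 100 bp of the summit, 3 of the 10 IDR peaks at Rab genes held it (30%), against 4.39% of all IDR peaks and 8.3% of promoter IDR peaks. These are the Rab40, Rab8 and Rab30 sequences shown above. Of the 27 pooled calls at Rab promoters 6 held it (22.2%), the other 3 being those of Rab2, Rab7 and Rab35, against 1.56% of all pooled calls, most of which are not at promoters. The shorter ATCGAT was in 4 of the 10 IDR peaks, the 4th being Rab14, against 11.3% of all IDR peaks. Among Rab genes with a DRE in the promoter 3 of 11 had an IDR peak there (27.3%) and 9 a pooled call (81.8%). Among those without, 3 of 19 (15.8%) and 12 (63.2%) did. Over all protein-coding genes the shares were 22.6% and 65.4% with a DRE, and 13.3% and 44.9% without. Rab genes thus hold DREs more often than genes in general in this genome, and how far this goes with their calls was not tested. Of the 11 Rab genes with a DRE in the promoter, all but Rab19 and Rab35 have a head-to-head neighbour. The share with a DRE among all genes with such a neighbour was not counted. Whether a DRE belongs to the Rab gene or to its neighbour was not tested.

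**Figure D5:**
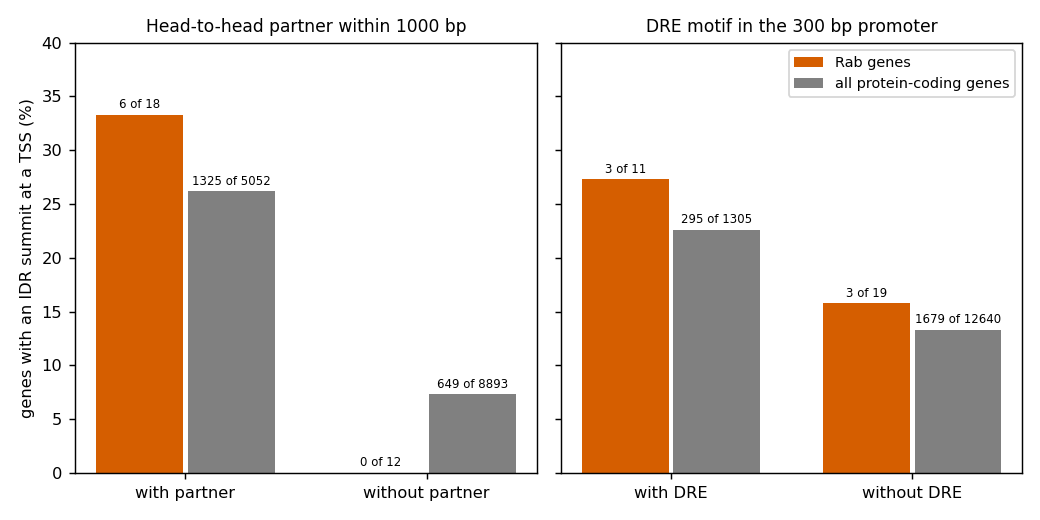
Share of genes with a promoter IDR summit (y, percent, from 0), for Rab genes and all protein-coding genes, split by a head-to-head neighbour with its TSS at most 1000 bp upstream (left) and by a DRE in the 300 bp promoter (right); numbers over the bars are genes with a summit of genes in the class. The Rab bar is at 0 of 12 genes without a neighbour and at 6 of 18 with one.

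The site of ATF/CREB factors was not met at the Rab calls. TGACGTCA was in 0 of the 10 IDR peaks, which allows a share of up to 30%, and in 0 of the 27 promoter calls, which allows up to 11.1%, against 1.52% of all IDR peaks and 0.811% of all pooled calls. At these shares 10 or 27 calls cannot show a difference. Its core TGACGT, which the longer site also holds, was in 0 of the 10 peaks as well, against 6.04%. The core was in 1 Rab promoter (3.33%), that of Rab11, against 6.65% of all protein-coding promoters. The AP-1 site TGANTCA was in 0 of the 10 IDR peaks, against 5.46% of all IDR peaks, and in 2 of the 27 promoter calls, against 4.21%. It was in 5 Rab promoters (Rab4, Rab5, Rab6, Rab9D and RabX4; 16.7%), against 6.18% of all. The M1BP core GGTCACAC was in 0 of the 10 peaks, against 2.59% of all IDR peaks, and in 4 Rab promoters (13.3%), against 7.7% of all. TATAAA was in 1 of the 10 peaks, that of Rab23, against 29.6% of all IDR peaks. The palindrome ATTGCAAT, added after reading the sequences, was in 2 of the 10 peaks, of Rab11 and Rab40, against 1.1% of all IDR peaks.

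Genes of the proteins that work on Rabs carried Atf3 promoter calls as well. Over 89 such genes, 26 had a promoter IDR peak (29.2%) and 71 a pooled promoter call (79.8%), against 14.2% and 46.8% of all protein-coding genes. The first share lies within the Wilson interval of the Rab genes (9.51 to 37.3%), and the difference was not tested. Of the 4 genes of the Rab cycle core, 3 had an IDR peak. RabGGTa and RabGGTb, the subunits of the geranylgeranyl transferase, had signals of 134 and 89.9, and Rep, the escort protein, 122, each with its own TSS nearest to the summit. RabGGTa ranked 1327, 1445 and 1860 in replicates 1 to 3, inside the top peaks of all 3, while RabGGTb ranked 1955, 3595 and 21900. Gdi, which extracts Rabs from membranes, stood at pooled rank 3249, below the IDR list.

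The list counts that follow stand beside the same 14.2% of all protein-coding genes with a promoter IDR peak. Among Rab exchange factors 4 of 13 had an IDR peak, among them spri (signal 234) and Ccz1 and Mon1 (113 and 105), which together activate Rab7. Of the TRAPP list, whose proteins include those of an exchange factor of Rab1, 4 of 10 had one, with gry (143) and brun (138) the best. Of the activating proteins 5 of 20 had one, led by CG5916 (206) and Rab3GAP1 (174). Effectors had 2 of 17: Rbsn-5, the rabenosyn that binds Rab5 (340), and didum, the myosin V motor (194). The list of HOPS and CORVET tethers of late and early endosomes, which also holds the related Vps16B and Vps33B, had 3 of 9. Of these Vps33B had the best signal, 462. The exocyst, a tether at the plasma membrane, had 3 of 8, with Sec3 at 152. Golgins and other tethers had 2 of 11, Golgin245 (131) and GCC185 (106). Several of these summits lie nearest to the TSS of a neighbour, among them those of Vps33B (Fur1), Rbsn-5 (PAPLA1), Rab3GAP1 (CG14352), CG5916 (Mic26-27), didum (dpa), Sec3 (COX7B), brun (CG2614) and GCC185 (KLHL18). As for the Rab genes, the call of a shared promoter cannot be assigned to 1 gene.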

How the data were processed

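Atf3-eGFP ChIP-seq of whole fly embryos gave 3 replicates of 1 group. Per the file descriptions deposited with the lists, each dm6 replicate list and the pooled list came from the alignment and a control, and the IDR list from these. The authors deposited for each call a signal value, a −log10 q-value and a summit offset in bp. Aligner, peak caller, IDR threshold and read depth: not given in the sources used here. Lists for dm3 were not used. Positions are 1-based in dm6.

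Members and lists were chosen with earlier results of these data known. Signal was used to rank calls within a list, and −log10 q was not used. A replicate call matched an IDR peak when the overlap was at least 50% of the shorter interval. Its summit could thus lie elsewhere. It was 187 bp downstream of the IDR summit for Rab5 in replicate 2 and 107 bp downstream for Rab40 in replicate 1. For Rab32 in replicate 2 it was 166 bp upstream. Shares were set beside all 13945 protein-coding genes, pseudogenes and transposable elements left out; no test was run. Motifs (9, plus 2 added) were searched on both strands within 100 bp of the summit and in 300 bp promoters. The motifs without a result above were the E-box CACGTG, present in 0 of the 10 Rab IDR peaks against 2.35% of all IDR peaks, the GAGA factor motif GAGAGAG, in 0 against 4.66%, and the joint site of C/EBP and ATF, TGATGCAA, in 0 against 0.622%. Of 140 listed genes of the Rab machinery and other small GTPases 10 matched no gene, and 13 matched by an older symbol through the RefSeq gene table.

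Named genes were all Rab genes, up to 4 members of each list with the best promoter signal, and genes sharing a Rab promoter peak; a few list results are not reported here. Partners and neighbours of other calls were named after their values were seen. The labels do not say whether replicates came from separate collections. The assignment of summits to genes was tested on simulated data, only at genes with a single TSS far from any other protein-coding TSS. Shared promoters and genes with several TSSs were not simulated. Alternatives covered the window, the TSS rule, stricter and wider call sets, the overlap rule and each replicate left out. Software was pandas 2.3.3, numpy 2.4.6, matplotlib 3.10.9 and scipy 1.17.1 under Python 3.11.15.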

Additional observations from a re-analysis of the deposited data

How the results depend on the processing

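Of 42 alternative settings 25 left the value within 1.5 times. Percentages in brackets here are the shares of all protein-coding genes at the same setting. The 21 Rab genes with a pooled promoter call (46.8%) ran from 15 (35.4%) to 23 (58.4%). Taking only the 27 Rab genes without repeated promoter words, a choice made after seeing the data, could not change either promoter count. The 3 genes left out had no promoter call, and these settings are among the 25. The 6 genes with a promoter IDR summit (14.2%) became 3 with the nearest TSS only (10%). They became 1 with the 1448 IDR peaks of best signal (7.97%). They also became 1 with the 1535 IDR peaks that overlap a top peak of every replicate (8.05%). The IDR list could not be remade without a replicate. For each replicate left out, only IDR peaks that overlap a top peak of both others were kept. That stricter set gave 1 to 4 genes (8.94 to 10.2%). The 5 genes with an IDR summit inside (8.48%) became 2 with either stricter set (4.88% and 5.03%). They became 11 when 1000 bp around the gene were included (21.4%). With the same overlap filter for each replicate left out they became 2 to 3 (5.69 to 6.02%). The mean of 4.33 genes among the top peaks (13.6%) became 2.67 with a window of 250 bp (10.7%) or with the nearest TSS only (9.78%). It became 1.67 with 1448 top peaks (7.9%), 7.67 with 5792 (21.1%) and 17.33 with all calls (45.2%). When a replicate was left out it was 3.50 to 6.00 (13 to 14%). Of the 6 promoter IDR peaks, 4 were found in all replicate lists (4 to 6 when a replicate was left out) but 1 among the top peaks of all. Over the whole list, 1535 of the 2896 IDR peaks overlapped a top peak of every replicate. The share of all IDR peaks found in all replicate lists was not counted. Causes of these shifts other than the smaller or larger sets were not tested. Small differences at Rab genes are limited by 30 members and unknown depth. No paired analysis was possible because there was only 1 group of samples.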

Other observations

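Beyond the promoter window and the genes, 4 IDR peaks lay within 2 kb of a Rab gene, past its 3′ end and at the promoter of the next gene. The strongest, with a signal of 427 at pooled rank 101, was 431 bp past the end of Rab32 and 172 bp from the TSS of Rme-8, a DNAJ-domain protein of endocytosis, and a further peak (signal 98.1) lay 378 bp from the same TSS. A peak with a signal of 353 was 153 bp past the end of RabX5 and 94 bp from the TSS of RpL23A, a ribosomal protein gene. Past the end of Rab19, a peak with a signal of 116 was 23 bp from the TSS of Arl5, a small GTPase of the Arf family. These peaks had nearer TSSs than those of the Rab genes and were not counted for them.

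Genes of other small GTPase families also carried promoter IDR peaks. The Ras family of growth and adhesion signalling had 3 of 10, Ras85D (signal 138), Rap1 (signal 109) and Ras64B (signal 103). The Arf and Arl family of coat recruitment and Golgi traffic had 2 of 12, Arl1 (signal 209) and Arl5 (signal 116). These shares are 30% for Ras and 16.7% for Arf and Arl, against 14.2% of all protein-coding genes. The Arf and Arl share is thus near that of all genes, as is its pooled share of 50%, against 46.8%. The differences were not tested. The summits of Arl1 and Ras64B lay nearest to the TSS of a neighbour (brm and Rop).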
